A study of Mus musculus with 4 samples.

Results

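The collagen, integrin and laminin genes were followed across the cells of 4 mouse medulloblastomas. A gene was taken as a member when its symbol named a collagen chain (Col), an integrin alpha or beta subunit (Itga, Itgb) or a laminin alpha, beta or gamma chain (Lama, Lamb, Lamc), with Itgax left out. This gave 80 members of 33219 listed genes, made up of 44 collagens, 17 integrin alpha subunits, 8 integrin beta subunits and 11 laminins. The choice used symbols only and no measured value. The file of tumour 1 listed all 80 members, and those of tumours 2, 3 and 4 listed 47, 42 and 55, since a gene was listed there only when it had a UMI in at least 5 cells.

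The tumours were end-point medulloblastomas of the sonic hedgehog subgroup from Ptch1+/- mice that had been irradiated at birth, and none had been treated. Ptch1 encodes the receptor that holds hedgehog signalling in check, and mice with 1 working copy form tumours from the granule neuron progenitors of the cerebellum. Each tumour gave 1 single-cell library on the 10x Genomics platform, made from cells that were frozen viably, thawed and sorted as live. All 4 libraries form 1 group, with no normal tissue or second genotype beside it. The comparisons below were therefore made between classes of cells within the same tumours. The labels number the samples 1 to 4 without stating that each came from a separate mouse, so p-values measure the spread between these samples only.

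Collagens and laminins are secreted proteins of the extracellular matrix, and integrins are the receptors that tie cells to it. A collagen molecule is a triple helix of 3 chains, and a laminin is a cross of 1 alpha, 1 beta and 1 gamma chain. Type IV collagen and laminin build the basement membrane, which in the brain lies around blood vessels and under the meninges. The granule progenitors of the young cerebellum divide beneath that surface. An integrin is a pair of 1 alpha and 1 beta subunit. Itgb1 serves many alpha subunits and Itgb2 is the partner shared by leukocyte integrins such as Itgam and Itgal.

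Promoter sequence is shown for 3 members on which the results turn: Itgam, which was high in myeloid-like cells of every tumour, and the type IV collagen genes Col4a1 and Col4a2, which lie head to head and whose levels were both highest in tumour 1. Each sequence runs 5′ to 3′ on the strand of its gene, from 250 bases before to 50 bases after the start of transcription, and was taken from RefSeq on the build GRCm38.p6. In Itgam (chr7:128062390-128062689, plus strand) the capitals mark GAGGAA or its reverse complement TTCCTC, the core bound by the myeloid factor PU.1 and other ETS factors. In Col4a1 (chr8:11312777-11313076, minus strand) and Col4a2 (chr8:11312555-11312854, plus strand) the capitals mark GGGCGG or its reverse complement CCGCCC, the box bound by Sp1.
Itgam: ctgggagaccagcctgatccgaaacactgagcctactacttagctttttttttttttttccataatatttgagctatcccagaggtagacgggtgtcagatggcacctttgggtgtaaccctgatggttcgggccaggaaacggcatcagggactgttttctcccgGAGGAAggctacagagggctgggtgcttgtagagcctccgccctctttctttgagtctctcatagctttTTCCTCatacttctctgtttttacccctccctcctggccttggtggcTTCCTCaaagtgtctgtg
Col4a1: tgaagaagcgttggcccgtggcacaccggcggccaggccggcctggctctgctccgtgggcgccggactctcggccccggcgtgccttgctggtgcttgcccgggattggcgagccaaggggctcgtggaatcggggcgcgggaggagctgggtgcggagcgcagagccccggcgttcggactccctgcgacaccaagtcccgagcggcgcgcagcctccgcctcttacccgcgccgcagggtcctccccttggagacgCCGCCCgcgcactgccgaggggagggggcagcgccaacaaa
Col4a2: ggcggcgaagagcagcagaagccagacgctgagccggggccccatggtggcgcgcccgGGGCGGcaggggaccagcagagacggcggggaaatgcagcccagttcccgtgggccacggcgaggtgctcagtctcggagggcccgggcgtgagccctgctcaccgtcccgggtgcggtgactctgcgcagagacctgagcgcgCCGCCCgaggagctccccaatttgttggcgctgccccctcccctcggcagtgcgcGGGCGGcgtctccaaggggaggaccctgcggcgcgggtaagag

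The Itgam window held 3 matches to GAGGAA. Col4a1 held 1 match to GGGCGG and Col4a2 held 3. The Col4a1 and Col4a2 windows share 78 bases, read on opposite strands (chr8:11312777-11312854), and the annotated genes overlap by 85 bases (chr8:11312805-11312889). With both strands searched, GAGGAA was found in 28.3% of all 32851 promoter windows and in 27 of the 63 windows (42.9%) of the 57 members that had an entry. GGGCGG was found in 35.7% of all windows and in 35 of the 63 (55.6%). The hedgehog factor motif GACCACCCA was found in 0.253% of all windows and in 0 of the members' windows. A match describes letters in a window and does not show binding.

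After removal of 21 called doublets, 797, 2586, 1224 and 1881 cells were kept in tumours 1 to 4, with median depths of 15272, 7728, 6785 and 7798 UMIs per cell. Any pair of libraries shared at most 7 cell barcodes. Tumour 4 stood apart: immune-like cells made up 63.1% of its cells, against 11.5%, 6.07% and 1.14% in tumours 1 to 3, and 459 of its 473 progenitor-like cells came from a cluster found in no other tumour. Markers of the cells that usually make matrix were scarce. Dcn, which marks fibroblasts, and Pdgfrb, which marks pericytes, had 1 UMI each in tumour 1, and the endothelial gene Cldn5 had 0. The files of tumours 2 to 4 did not list these 3 genes, so counts in fewer than 5 cells there are unknown. Over all cells the endothelial markers summed to 9.52 CPM in tumour 1 (11 of 11 listed) and to between 4.20 and 6.27 CPM in tumours 2 to 4, where only 4, 3 and 5 were listed. The mural markers summed to 32.2 CPM in tumour 1 (10 of 10 listed) and to between 3.90 and 15.3 CPM in the others (5, 5 and 6 listed). The fibroblast and meningeal markers summed to 173 CPM in tumour 1 (11 of 11 listed) and to between 97.2 and 148 CPM in the others (4, 5 and 7 listed). The last of these lists also holds genes that progenitors express, and it summed to between 82.8 and 182 CPM in progenitor-like cells. No endothelial, mural or fibroblast class was found.

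Levels are given in CPM, a gene's share of all UMIs summed over the cells named, as a count for every 1000000 UMIs. The members had 39087 UMIs together: 14233 in collagens, 8533 in integrin alpha subunits, 14367 in integrin beta subunits and 1954 in laminins. Over all cells, 14 members had a mean of at least 10 CPM, 22 lay between 1 and 10 CPM, and 44 lay below 1 CPM. No UMI was seen for 5 members, Col10a1, Col13a1, Col6a6, Col8a1 and Lamc3, in the files that listed them, and Col1a1, the main chain of the fibrillar collagen of skin and bone, had 3. Since 22 members were listed in tumour 1 only, such low counts do not show absence from the other tumours. In bulk sums over all cells, fewer cells of a type and less RNA per cell cannot be told apart, so levels within classes follow further on.

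Among the collagens, Col9a3, a chain of type IX collagen best known from cartilage, measured 108, 119, 98.7 and 35.3 CPM in tumours 1 to 4 (mean 90.1 ± 37.4, SD, n = 4). Tumours 1 to 3 lay close together and tumour 4 was the lowest. Its partner chains Col9a1 and Col9a2 measured between 2.44 and 5.78 CPM and between 1.78 and 5.15 CPM. Col11a1, a fibrillar collagen chain, measured 24.3, 14.3, 21.5 and 10.1 CPM. Col3a1, a fibrillar chain of soft tissue, measured 24.2, 9.89, 12.6 and 12.2 CPM. Both were highest in tumour 1. Col4a1 measured 33.8, 9.55, 7.14 and 7.38 CPM, and its partner Col4a2 measured 7.98, 3.21, 2.90 and 2.94 CPM. For both chains of type IV collagen tumour 1 lay above the other 3 tumours, which lay close together. Col5a2, at 20.1 CPM in tumour 1 and between 2.41 and 5.65 CPM elsewhere, and Col27a1, at 15.4 CPM in tumour 1 and between 3.67 and 9.20 CPM elsewhere, were also highest there. Col18a1, a basement membrane collagen whose cleaved end is endostatin, varied less, at 13.4, 11.1, 9.94 and 6.93 CPM.

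Among the laminins, Lama5, a broadly expressed alpha chain, measured 18.1, 9.89, 11.3 and 5.21 CPM, and Lamc1, the gamma chain of most laminins, measured 12, 5.86, 4.44 and 5.38 CPM. Lama2, the alpha chain of muscle and glial basement membranes, measured 10.3, 2.48, 1.45 and 2.11 CPM. Lamb2 measured 6.43, 2.65, 0.869 and 2.66 CPM. Tumour 1 was the highest for all of these 4 laminins. Tumour 1 also had the deepest cells, and whether depth has a part in this order was not tested.

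Among the integrins, Itgb1 measured 78.8, 110.5, 128 and 103 CPM (mean 105 ± 20.4, SD, n = 4), so the 4 tumours differed by less than 2-fold. Itga7, a laminin-binding subunit best known from muscle, measured 33.2, 31.7, 39.2 and 7.10 CPM and was lowest in tumour 4. Itgav, which pairs with several beta subunits and binds RGD-bearing matrix proteins, measured 19.9, 13.3, 21.9 and 32.7 CPM. The leukocyte integrins spread most widely. Itgb2 measured 16.9, 12.2, 2.41 and 154 CPM, Itgam 6.95, 2.70, 0.676 and 85.5 CPM, and Itga4, which binds Vcam1 and fibronectin, 5.35, 5.52, 6.18 and 43.8 CPM. Itgb5, a partner of Itgav, measured 7.57, 4.97, 1.64 and 70.6 CPM. Itgb7, a partner of Itga4 and Itgae on lymphocytes, measured 7 and 5.22 CPM in tumours 1 and 2 and 69.9 CPM in tumour 4, and was not listed in tumour 3. All 5 were highest in tumour 4, the tumour with the largest share of immune-like cells.

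**Figure D1:**
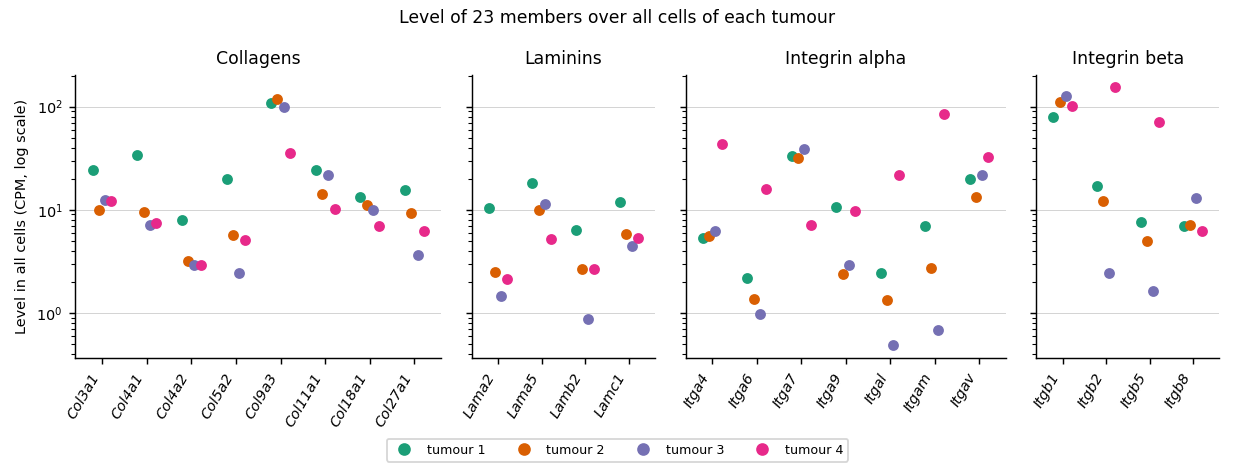
Level over all cells (CPM, log scale) of 23 members in the 4 tumours, 1 point per tumour, by family. Col4a1 and Col5a2 are highest in tumour 1, Itgam, Itgb2, Itgb5, Itga4 and Itgal are highest in tumour 4, and the 4 points of Itgb1 lie between 78.8 and 128 CPM.

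Cells were grouped into classes by clustering without the members, and classes were named from fixed marker lists. Progenitor-like cells numbered 348, 1882, 979 and 473 in tumours 1 to 4. In tumours 1 to 3 they join the granule progenitor-like and the cycling-like clusters. In tumour 4 they are almost wholly its own cluster, which mixes markers of both and gave 459 of the 473 cells, so the comparisons with progenitor-like cells rest on a different cluster in that tumour. Neuron-like cells numbered 46, 454, 136 and 134, astrocyte-like cells 16, 15, 25 and 23, and myeloid-like cells 84, 135, 12 and 467. Of the neuron-like cells of tumour 4, 133 came from a cluster found in no other tumour. Those of tumours 1 to 3 all came from 1 other cluster. The myeloid-like cells of tumour 4 were 440 monocyte and macrophage-like and 27 microglia-like cells. In tumours 1 to 3, 82, 132 and 11 of them came from 1 mixed cluster, whose leading genes held the dendritic markers Cd74, H2-Aa, H2-Ab1 and H2-Eb1 beside the macrophage genes Lyz2, C1qa, C1qb and C1qc. Oligodendrocyte lineage-like cells numbered 16, 34 and 46 in tumours 2 to 4, and the 2 such cells of tumour 1 were too few to use. The 30 members compared over these classes were those with enough UMIs over all cells and a value in every class. Of these, 10 had their highest mean in astrocyte-like cells, 8 in myeloid-like cells, 7 in the oligodendrocyte lineage, 3 in neuron-like cells and 2 in progenitor-like cells. The same count over all genes was not made, so these numbers do not set the members apart from other genes. The means of the astrocyte and oligodendrocyte classes rest on few cells, and those of the oligodendrocyte lineage leave out tumour 1.

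**Figure D2:**
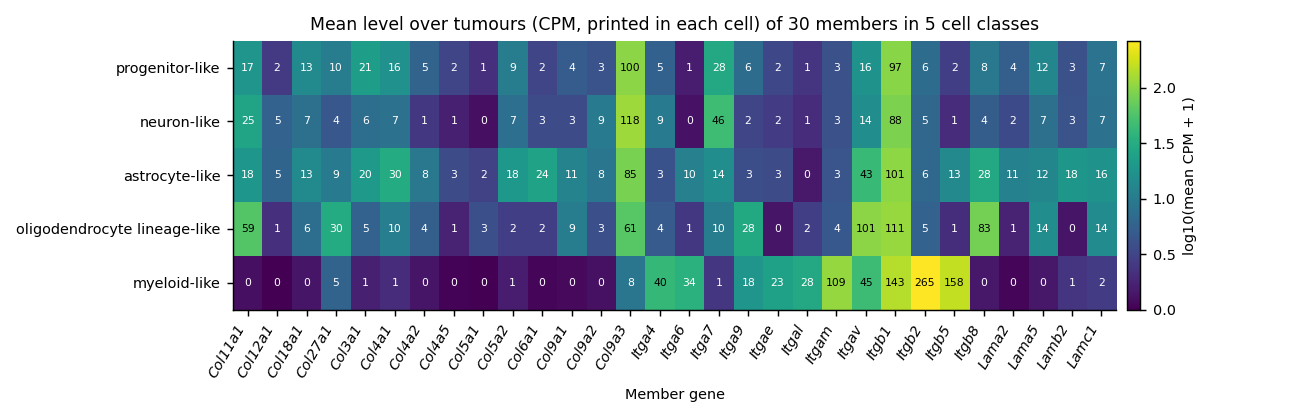
Mean level over tumours (CPM, printed in each field, colour on a log10 scale) of 30 members in 5 cell classes, n = 4 tumours and 3 for the oligodendrocyte lineage. Itgb2 stands at 265 CPM in myeloid-like cells and 6.25 CPM in progenitor-like cells, while Itgb1 lies between 87.6 and 143 CPM in every class.

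Each comparison below used UMIs summed per tumour and class, on the scale log2(CPM + 10), which understates changes of low genes. The test was limma with the tumour as a block and Benjamini-Hochberg adjustment over all genes tested. Only 23 of the 80 members passed the filter on low values in at least 1 comparison, and 17 of these were called in at least 1 of the 5 comparisons. A member could pass the filter through the class where it was high alone, so these counts do not describe the 57 members that were never tested. For such a member the filter also set which class had the higher mean.

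The first comparison asks how matrix genes differ between the tumour's progenitor-like cells and the neuron-like cells, which carry markers of postmitotic granule neurons. Of 8 members tested, 2 were higher and 3 were lower in neuron-like cells, beside 44.9% of all 8192 genes tested that were called in either direction, 25.9% higher and 19.0% lower. Among genes that took no part in clustering or naming, these shares were 44.2%, 25.7% and 18.6%. Their median difference was -0.12, beside 0.04 for all genes tested. The members' 5 of 8 stand against that large share of all genes. The 3 that were lower were the collagens Col3a1, Col4a1 and Col18a1, with means below 10 CPM in neuron-like cells. Each passed the filter through progenitor-like cells, where it was high, which set its direction. Col3a1 measured 11.2, 1.73, 1.15 and 11.7 CPM in the neuron-like cells of tumours 1 to 4 and 28.1, 11.5, 14.1 and 31.1 CPM in the progenitor-like cells. It was lower in all 4 tumours, though the groups overlapped across tumours, by -0.94 on the log2 scale (SE 0.11, limma adjusted p = 7.7e-05). Col4a1 measured 21.2, 1.04, 1.15 and 4.78 CPM against 28.7, 11.1, 7.61 and 15.9 CPM. It was lower in 4 of 4 tumours, with a difference of -0.68 (SE 0.13, limma adjusted p = 0.0017). Without tumour 1 Col4a1 did not pass the filter and was not tested. Col18a1 measured 9.95, 2.08, 3.45 and 11.7 CPM against 12, 13.4, 11.1 and 16.5 CPM, a difference of -0.51 (SE 0.15, limma adjusted p = 0.0152). The call was lost without tumour 2 (adjusted p = 0.0982) and without tumour 3 (adjusted p = 0.0661), and without tumour 1 or 4 Col18a1 did not pass the filter and was not tested.

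The members that were higher in neuron-like cells were Col11a1 and Itga7. Itga7 measured 36.1, 59.3, 67.8 and 22.3 CPM in neuron-like cells and 33.9, 29.5, 37.8 and 11.6 CPM in progenitor-like cells. The rise was small in tumour 1 and clear in the other 3, and the difference was 0.54 (SE 0.13, limma adjusted p = 0.00563). Col11a1 measured 33.6, 22.9, 25.3 and 18.6 CPM against 21.6, 13.3, 19.8 and 14.6 CPM, higher in 4 of 4 tumours by 0.36 (SE 0.11, limma adjusted p = 0.0228). That call was lost without tumour 1 (adjusted p = 0.077) and without tumour 2 (adjusted p = 0.111). Col9a3, Itgav and Itgb1 did not pass, with differences of 0.18, -0.13 and -0.11. Itgb1 measured 97.0, 96.4, 94.2 and 62.7 CPM in neuron-like cells against 82.2, 112, 129 and 64.8 CPM. Without tumour 4, 3 members were higher and 2 lower, a count given without the share of all genes called in that fit. Col9a3 then passed at 0.29 (limma adjusted p = 0.0271).

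Genes that work with the members moved in both directions here, as did all genes tested, of which 25.9% were higher and 19.0% lower. The list counts below stand beside these shares. In the list of matrix partners, Reln, a secreted protein that guides migrating neurons, was higher by 1.48 (limma adjusted p = 1.13e-06) and Fbln1, a basement membrane protein, fell by 0.94 (adjusted p = 0.000771), with 2 higher and 2 lower of 8 tested. L1cam, an adhesion molecule of axons that integrins can bind, was higher by 2.03. Loxl1, which crosslinks elastic fibres, fell by 1.28, and it was 1 of 2 lower and 2 higher among 14 tested genes of collagen folding and crosslinking. The integrin activation and adhesion complex list had 6 higher and 3 lower of 22, with talin (Tln1) higher by 0.84 and Actn1 lower, at -0.69. The median of that list was 0.13.

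The next comparison set cycling-like cells beside the granule progenitor-like class. It used tumours 1 to 3, since tumour 4 had 11 and 3 such cells. The granule progenitor-like class was not shown to be free of cycling cells. Cycling markers summed there to 808, 1425 and 1494 CPM in tumours 1 to 3, against 4458, 5811 and 5189 CPM in cycling-like cells. In neuron-like cells of these tumours the sums were 677, 492 and 917 CPM. Of 9 members tested, 1 was higher and 3 were lower in cycling-like cells, beside 35.4% of 8043 genes called, 15.3% higher and 20.2% lower (34.3% of genes that took no part in clustering or naming, with 19.3% lower). The members' 4 of 9 were near that background. The median difference of the 9 was -0.12, beside -0.04 for all genes tested. Lama5 was the member that rose, at 17.2, 15.5 and 18.1 CPM in cycling-like cells against 10.9, 6.84 and 7.36 CPM in granule progenitor-like cells of tumours 1 to 3. The groups did not overlap and the difference was 0.56 (SE 0.10, limma adjusted p = 6.07e-05). Col18a1 measured 9.28, 9.89 and 8.65 CPM against 17.7, 17.6 and 13.3 CPM. Again the groups did not overlap, with a difference of -0.44 (SE 0.09, limma adjusted p = 0.000644). Lama5 had a mean below 10 CPM in granule progenitor-like cells, and Col18a1 had one in cycling-like cells. Each passed the filter through the other class, which set its direction. Col11a1 measured 18.3, 10.6 and 15.3 CPM against 28.2, 16.7 and 23.9 CPM, lower in 3 of 3 tumours by -0.41 (SE 0.09, limma adjusted p = 0.000769).

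Col9a3 was called lower with a small difference of -0.18 (SE 0.07, limma adjusted p = 0.0348). Its levels were 110.5, 111 and 87.3 CPM in cycling-like cells against 111, 138 and 105 CPM, so tumour 1 showed next to no difference. The call was lost without tumour 2 (adjusted p = 0.368) and without tumour 3 (adjusted p = 0.151). Col4a1 (0.23, adjusted p = 0.0602 by limma), Itga7 (-0.18), Itgb1 (-0.12), Col3a1 (0.01) and Itgav (-0.01) did not pass. Among 15 tested genes of collagen folding and crosslinking, 7 were lower, beside 20.2% of all genes, at a list median of -0.19. Serpinh1, the chaperone that binds collagen in the endoplasmic reticulum, was lower by -0.60 (limma adjusted p = 6.24e-07), and the prolyl isomerase Ppib by -0.36. Ddr1, a collagen receptor kinase, was lower by -0.38 and its relative Ddr2 was higher by 0.31.

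**Figure D3:**
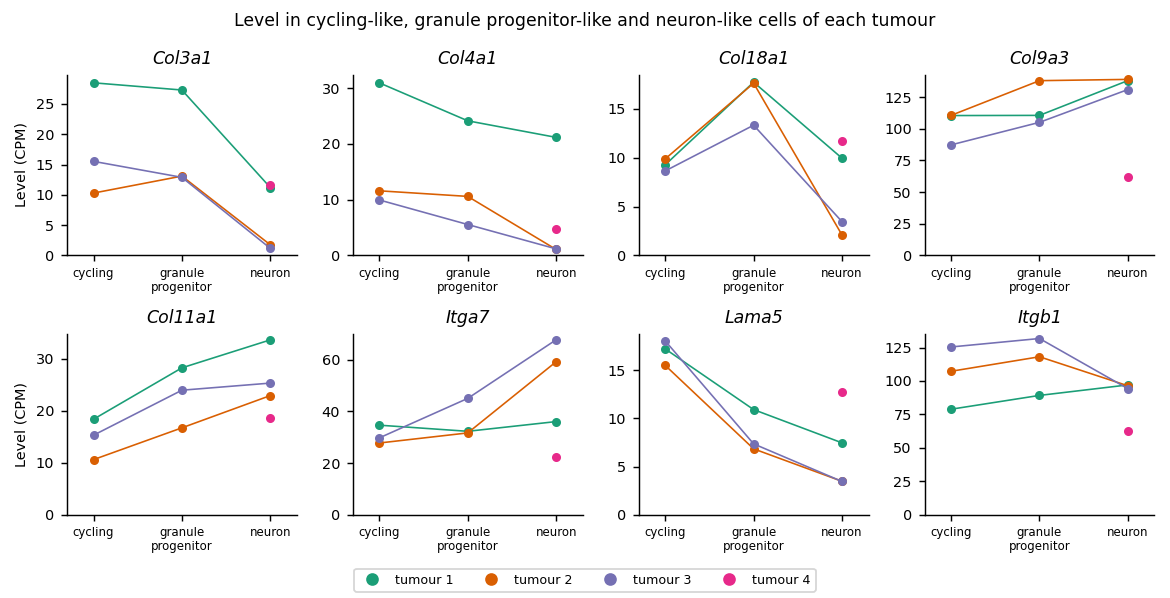
Level (CPM, linear axis from 0) of 8 members in cycling-like, granule progenitor-like and neuron-like cells, 1 line per tumour for tumours 1 to 3 and a single point for the neuron-like cells of tumour 4. Col3a1 lies lower in neuron-like cells and Lama5 is highest in cycling-like cells in each of tumours 1 to 3.

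Astrocyte-like cells, between 15 and 25 a tumour, were compared with progenitor-like cells in all 4 tumours. Of 14 members tested, 2 were higher and 0 lower by limma, beside 6.31% of 8323 genes called, 4.48% higher and 1.83% lower. For genes outside clustering and naming the shares were 3.98%, 2.47% and 1.51%. At an unadjusted p under 0.05, 4 members were higher and 1 was lower. Without tumour 4, 0 were called by limma, a count given without the share of all genes called in that fit. Both called members are subunits that pair with each other. Itgav measured 48.8, 22.1, 48.5 and 52.8 CPM in astrocyte-like cells and 16.1, 12.4, 19.4 and 17.8 CPM in progenitor-like cells. Tumour 2 was the lowest of the astrocyte-like values and still lay above every progenitor-like value. The 15 astrocyte-like cells of tumour 2 held 135982 UMIs in all, so this value rests on few UMIs, as does that of Itgb8 below. The difference in Itgav was 0.96 (SE 0.22, limma adjusted p = 0.0206). Itgb8, which with Itgav activates latent TGF-beta, measured 14.4, 29.4, 32.3 and 35.2 CPM against 6.54, 7.37, 10.1 and 9.09 CPM. The groups did not overlap and the difference was 1.01 (SE 0.23, limma adjusted p = 0.0242). Itgb8 had a mean below 10 CPM in progenitor-like cells and passed the filter through astrocyte-like cells, which set its direction. With so few cells the calls were fragile. Leaving out tumour 1, 3 or 4 lost Itgav (limma adjusted p from 0.0842 to 0.101). Leaving out tumour 2, 3 or 4 lost Itgb8 (limma adjusted p from 0.0815 to 0.107). Astrocyte markers summed to 5016, 11384, 14997 and 24845 CPM in this class of tumours 1 to 4. Granule progenitor markers summed there to 3063, 2647, 3554 and 1228 CPM, against 3157, 4176, 5237 and 2282 CPM in progenitor-like cells. The part of progenitor transcripts in the Itgav and Itgb8 values was not tested.

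Lamb2, a laminin chain of mature basement membranes, measured 12.6, 22.1, 5.38 and 32.2 CPM in astrocyte-like cells against 4.61, 2.87, 0.966 and 3.6 CPM. It was higher in 4 of 4 tumours by 1.02 and narrowly missed the threshold (SE 0.29, limma adjusted p = 0.0619). Col6a1, a chain of microfibrillar type VI collagen, measured 0, 14.7, 10.8 and 70.3 CPM and did not pass (1.07, limma adjusted p = 0.196). Lamb2 and Col6a1 had means below 10 CPM in progenitor-like cells, so the filter set their direction. The astrocyte-like cells of tumours 2 and 3 held 135982 and 185708 UMIs in all, so both genes rest on few UMIs there. The astrocyte-like cells of tumour 4 also carried Ttr, a choroid plexus gene, at 20000 CPM, and ependymal and choroid plexus markers summed there to 20085 CPM against 21.5 to 23.5 CPM in tumours 1 to 3. The fibroblast and meningeal markers summed to 2796 CPM in those cells, with Mgp at 1999 CPM, against 381 to 840 CPM in tumours 1 to 3. Lum, a fibroblast gene, had 17 of its 20 UMIs of tumour 4 there. The part of such cells in the Lamb2 and Col6a1 values was not tested. In the list of matrix partners 7 of 13 tested genes were higher, beside 4.48% of all genes, with a list median of 1.04. Among them were Sparc, a collagen-binding glycoprotein, at 3.63 (limma adjusted p = 0.000243), Bcan at 2.77, Tnc at 1.88 and Nid1, which links laminin to type IV collagen, at 1.65. The protease inhibitors Serpine2 (4.47) and Timp4 (3.61) were also higher, in a list with 5 higher of 12.

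Oligodendrocyte lineage-like cells of tumours 2 to 4 were compared with the progenitor-like cells of the same tumours. Of 12 members tested, 4 were higher and 0 lower by limma, beside 11.4% of 8724 genes called, 9.17% higher and 2.25% lower. For genes outside clustering and naming they were 9.13%, 7.06% and 2.08%. At an unadjusted p under 0.05, 5 members were higher and 1 was lower. Of the 4 called by limma, Itgb8 and Itga9 had means below 10 CPM in progenitor-like cells. Both passed the filter through the lineage class, which set their direction. Without tumour 4, 3 of 9 members were higher, a count given without the share of all genes called in that fit. Finer clustering (resolution 2), which drew the class over all 4 tumours, left 0 members called by limma and 0% of all genes called. Itgav and Itgb8 then differed by 1.66 and 1.87, each at a limma adjusted p of 0.0539, Col11a1 by 1.18 (adjusted p = 0.0539) and Itga9 by 1.05 (adjusted p = 0.105). Itgav measured 125, 86.6 and 90.6 CPM in the lineage against 12.4, 19.4 and 17.8 CPM in progenitor-like cells. All 3 values lay above every progenitor-like one, with a difference of 2.05 (SE 0.25, limma adjusted p = 0.00418). Its partner Itgb8 measured 96.1, 109.9 and 41.5 CPM against 7.37, 10.1 and 9.09 CPM. Tumour 4 had the smallest rise and the difference was 2.21 (SE 0.31, limma adjusted p = 0.00586). Oligodendrocyte lineage markers summed to 19341, 5196 and 2536 CPM in the lineage cells of tumours 2 to 4. Granule progenitor markers summed there to 1211, 2531 and 2248 CPM, against 4176, 5237 and 2282 CPM in progenitor-like cells. The part of progenitor transcripts in the lineage values was not tested. Col11a1 measured 48.1, 69.9 and 60.04 CPM against 13.3, 19.8 and 14.6 CPM, a difference of 1.42 (SE 0.23, limma adjusted p = 0.0106) that was lost without tumour 3 (adjusted p = 0.0822).

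Itga9, a subunit that binds tenascin and osteopontin, measured 19.2, 33.3 and 32.8 CPM in the oligodendrocyte lineage against 2.22, 1.81 and 10.8 CPM in progenitor-like cells. The difference was 1.39 (SE 0.30, limma adjusted p = 0.0285) and was lost without tumour 3 (adjusted p = 0.208) or tumour 4 (adjusted p = 0.064). Col27a1, a fibrillar chain, measured 57.7, 13.3 and 19.7 CPM and did not pass (1.09, limma adjusted p = 0.0636). Nor did Col3a1, with 0, 0 and 14.2 CPM (-1.05, limma adjusted p = 0.0711). Col27a1 had a mean below 10 CPM in progenitor-like cells and Col3a1 had one in the lineage cells, so the filter set these directions too. Col16a1 was not listed in tumour 2 and was not tested. It measured 46.6 and 32.8 CPM in the lineage cells of tumours 3 and 4 and 0.604 and 0.189 CPM in their progenitor-like cells. Among the other lists, Serpine2 (5.24), Mmp15 (3.08) and Lims2, an adaptor of the integrin-linked kinase (3.43), were higher. The adhesion complex list had 8 higher of 27 tested and the protease list had 7 higher of 12, beside 9.17% of all genes. Serpinh1 and Loxl1 were lower, at -1.60 and -1.13.

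Scaling moved the split over all genes in 3 of these comparisons by more than 10 percentage points. With median-of-ratios scaling, the genes called higher and lower were 1734 and 2055 rather than 2123 and 1553 in neuron-like cells, 1524 and 1063 rather than 1227 and 1624 in cycling-like cells, and 760 and 843 rather than 800 and 196 in the oligodendrocyte lineage. The median of all genes moved there from 0.06 to -0.08.

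The comparison of myeloid-like with progenitor-like cells used all 4 tumours. Of 13 members tested, 8 were higher and 3 were lower, beside 67.5% of 7972 genes called, 18.3% higher and 49.2% lower. Among the genes that took no part in clustering or naming, 65.0% were called, 13.5% higher and 51.5% lower. Without tumour 4, 8 members were higher and 2 lower of 12, a count given without the share of all genes called in that fit. Of the 13 tested, 11 were integrins, of which 8 rose and Itga7 fell, and the other 2 were the collagens Col9a3 and Col3a1, which both fell. Itgb2, Itgb5, Itgam, Itgal, Itga6 and Itga4 had means below 10 CPM in progenitor-like cells. Itga7, Col9a3 and Col3a1 had means below 10 CPM in myeloid-like cells. Each of these passed the filter through the class where it was high, which set its direction. The split between families describes only genes that passed the filter. No laminin was tested. Itgb2 measured 271, 273, 249 and 268 CPM in the myeloid-like cells of tumours 1 to 4 (mean 265 ± 11.2, SD, n = 4) and 3.42, 0.705, 0.242 and 20.7 CPM in progenitor-like cells. The myeloid-like values were nearly equal although the clusters behind them differed, and the difference was 4.24 (SE 0.26, limma adjusted p = 8.65e-06). Itgam, whose promoter is printed above and whose product with Itgb2 is the complement receptor Mac-1, measured 106, 62.7, 67.8 and 198 CPM against 1.78, 0.108, 0.121 and 10.0 CPM. It was highest in tumour 4 and its groups did not overlap (3.12, SE 0.18, limma adjusted p = 5.97e-06). Itgal, which forms LFA-1 with Itgb2, measured 27.3, 28.0, 11.3 and 45.5 CPM against 1.04, 0.0542, 0.483 and 3.6 CPM (1.68, SE 0.23, limma adjusted p = 0.000343).

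In the progenitor-like cells of tumour 4, where Itgb2 and Itgam were highest among the 4 tumours, neutrophil markers summed to 828 CPM and monocyte and macrophage markers to 451 CPM. In tumours 1 to 3 those sums were between 6.40 and 102 CPM and between 15.3 and 125 CPM. The part of immune transcripts in these values was not tested.

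Itgb5 measured 125, 122, 147 and 240.1 CPM in myeloid-like cells against 1.93, 0.271, 0.483 and 4.55 CPM, and the difference was 3.80 (SE 0.17, limma adjusted p = 4.65e-06). Its partner Itgav measured 29.4, 32.5, 56.5 and 62.4 CPM against 16.1, 12.4, 19.4 and 17.8 CPM. The groups did not overlap, but this difference of 1.02 was smaller (SE 0.19, limma adjusted p = 0.00181). Itga6, a laminin receptor subunit, measured 23.1, 29.1, 33.9 and 50.7 CPM against 0.892, 0.217, 0.362 and 0.758 CPM (2.03, SE 0.21, limma adjusted p = 8.7e-05). Itga4 measured 38.8, 40.3, 22.6 and 57.4 CPM against 1.93, 2.93, 5.92 and 7.96 CPM (1.73, SE 0.22, limma adjusted p = 0.000254). Both were higher in myeloid-like cells of every tumour without overlap. The 12 myeloid-like cells of tumour 3 held 88519 UMIs in all. Their values of Itga4, Itga6 and Itgal therefore rest on few UMIs. Itgb1 was higher in 3 of 4 tumours, at 119.7, 102, 226 and 126 CPM against 82.2, 112, 129 and 64.8 CPM. Its difference of 0.50 (SE 0.19, limma adjusted p = 0.044) was lost without tumour 1, 3 or 4 (adjusted p from 0.0761 to 0.175).

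The members that fell had few UMIs in myeloid-like cells. Col9a3 measured 4.20, 12.3, 11.3 and 3.97 CPM against 111, 123, 96.6 and 69.5 CPM, a difference of -2.62 (SE 0.18, limma adjusted p = 1.29e-05). Itga7 measured 1.05, 4.48, 0 and 0.209 CPM against 33.9, 29.5, 37.8 and 11.6 CPM (-1.69, SE 0.24, limma adjusted p = 0.000456), and Col3a1 1.05, 0, 0 and 1.46 CPM against 28.1, 11.5, 14.1 and 31.1 CPM (-1.50, SE 0.22, limma adjusted p = 0.000504). None of these 3 overlapped between classes. Without tumour 1 or 4 Col3a1 did not pass the filter and was not tested. Itga9 (0.71, adjusted p = 0.0643) and Itgae (1.00, adjusted p = 0.0773) did not pass. Itgae, the partner of Itgb7 that binds E-cadherin, measured 51.4 and 40.3 CPM in the myeloid-like cells of tumours 1 and 2 and 0 and 1.67 CPM in those of tumours 3 and 4. Itgb7 was not tested because tumour 3 did not list it, and its myeloid-like values were 114, 116 and 55.7 CPM in tumours 1, 2 and 4. Xcr1, a marker of dendritic cells, measured 43.0, 23.5 and 1.04 CPM in the same cells of tumours 1, 2 and 4, and was not listed in tumour 3. The dendritic markers summed to 59092, 70495, 17623 and 50070 CPM in the myeloid-like cells of tumours 1 to 4, with 8 of 15 listed in tumour 3. At resolution 2, 27 and 34 cells of tumours 1 and 2 formed a dendritic cell-like cluster. The part of such cells in the Itgae and Itgb7 values was not tested.

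**Figure D4:**
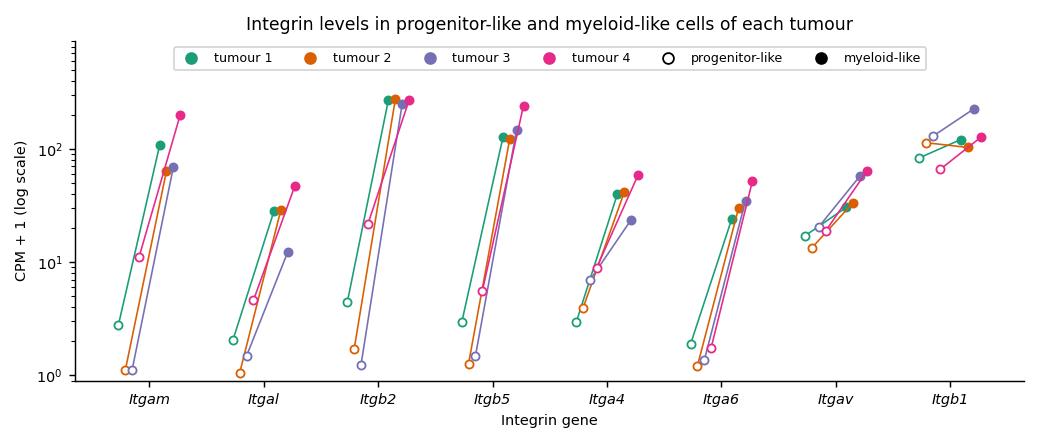
Level (CPM + 1, log scale) of 8 integrin genes in progenitor-like (open) and myeloid-like (filled) cells, joined by a line for each of the 4 tumours. Itgb2 is at 249 to 273 CPM in every myeloid-like class, and 1 of the 4 lines of Itgb1 slopes down.

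In the adhesion complex list 17 of 29 tested genes were higher and 5 lower, beside the 18.3% and 49.2% of all genes above, among them Fermt3, the kindlin of blood cells (3.64, limma adjusted p = 5.21e-06), and Apbb1ip, which brings talin to integrins (3.28). Of 6 tested ligands on cell surfaces or in latent form, 4 were higher and 1 lower, with Tgfb1 at 4.62, Icam1, a ligand of Itgal and Itgam, at 2.89 and Vcam1, a ligand of Itga4, at 2.71. Spp1 (osteopontin, 6.58), Fn1 (fibronectin, 4.05) and the collagen receptor Lair1 (3.88) were higher, while Serpinh1 (-3.02), Loxl1 (-2.63), the lysyl hydroxylase Plod2 (-1.97) and Ddr1 (-2.02) were lower. The median of all genes in this comparison was -0.49, and -0.14 with median-of-ratios scaling, which turned 1459 higher and 3922 lower genes into 1881 and 2777. All 11 called members kept their direction under that scaling.

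**Figure D5:**
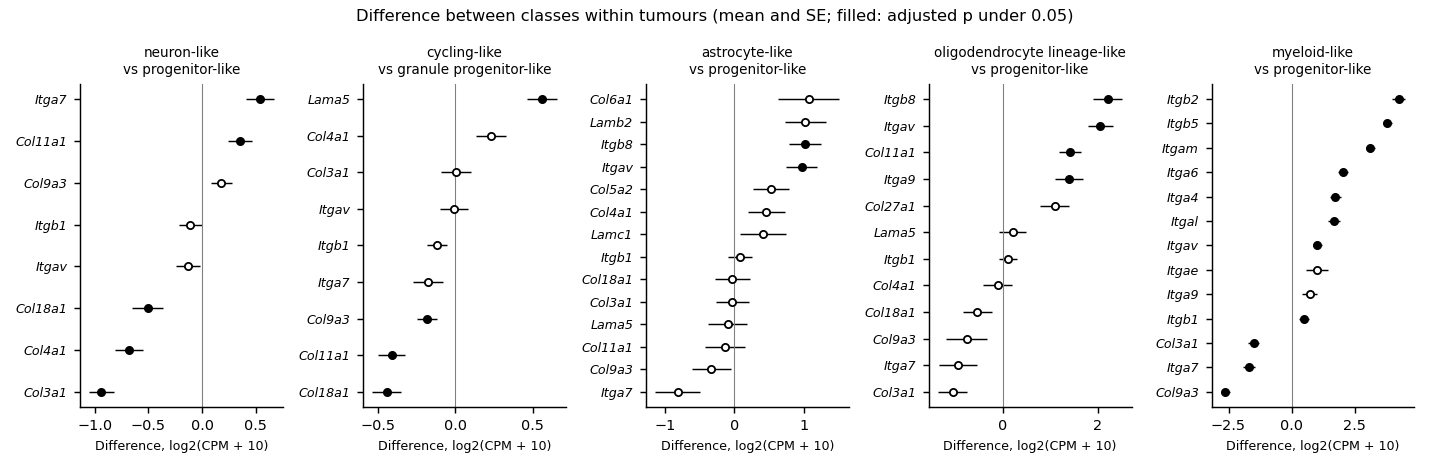
Difference on the log2(CPM + 10) scale (point) and its SE (bar) for each member tested in the 5 comparisons, with filled points at a limma adjusted p under 0.05. Integrins lie at the right of the myeloid panel, up to 4.24 for Itgb2, and Itgav and Itgb8 lie at the right of the oligodendrocyte panel.

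Other classes had at least 10 cells in 1 or 2 tumours only, too few for a test, and their levels are given with exact Poisson 95% intervals that cover counting error only. In tumour 4, T and NK cell-like cells (159 cells) had Itgb7 at 342 CPM (304 to 384), Itgb1 at 299.9 CPM (264 to 339) and Itga4 at 157 CPM (131 to 186). The 11 such cells of tumour 2 had Itgb7 at 148 CPM (84.7 to 241), Itgb1 at 157 CPM (91.7 to 252) and Itga4 at 83.4 CPM (38.1 to 158), all 3 below the values of tumour 4. In those 11 cells T and NK cell markers summed to 4113 CPM (11 of 18 listed) and dendritic markers to 8495 CPM. The T and NK cell-like cells of tumour 4 had 13598 CPM (18 of 18 listed) and 1878.5 CPM. The part of other cells in the tumour 2 values was not tested. The next 2 classes are those of tumour 4. Dendritic cell-like cells (182 cells) had Itgb7 at 295 CPM (273 to 319), Itgb2 at 245 CPM (225 to 267) and Itgae at 135 CPM (119 to 151). Neutrophil-like cells (379 cells) had Itgb2 at 395 CPM (366 to 427), Itgam at 199 CPM (178 to 221) and Col15a1, a basement membrane collagen, at 106 CPM (91.1 to 123). Col15a1 stood at 7.39 CPM (5.12 to 10.3) in the monocyte and macrophage-like cells of tumour 4, at 3.54 CPM (0.730 to 10.4) in its T and NK cell-like cells and at 4.36 CPM in its progenitor-like cells. Its level in neutrophil-like cells lay above the intervals of these other immune-like classes of tumour 4. The 11 neutrophil-like cells of tumour 2 had Col15a1 at 20.6 CPM (2.49 to 74.3, from 2 UMIs), Itgb2 at 92.5 CPM (42.3 to 176) and Itgam at 41.1 CPM (11.2 to 105), so the intervals of the 2 tumours did not overlap for Col15a1, Itgb2 or Itgam. Those 11 cells also had Col9a3 at 103 CPM (49.3 to 189), against 7.24 CPM in the neutrophil-like cells of tumour 4. Granule progenitor markers summed to 3412 CPM in the 11 cells and to 222 CPM in the neutrophil-like cells of tumour 4. Neutrophil markers summed to 7205 CPM and 57319 CPM, in the same order. The part of progenitor transcripts in the tumour 2 values was not tested.

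Microglia-like cells of tumour 4 (27 cells) had Itgb5 at 517 CPM (420 to 631), Itgb2 at 309 CPM (235 to 400.0) and Itgam at 277 CPM (207 to 364). The monocyte and macrophage-like cells of the same tumour (440 cells) had Itgb5 at 229 CPM (215 to 243) and Itgb2 at 266 CPM (252 to 282). For Itgb5 these intervals do not overlap, and for Itgb2 they do. Skeletal muscle-like cells were found in tumour 1 only (53 cells) and had Itgb1 at 92.6 CPM (73.7 to 115), Col9a3 at 65.8 CPM (50.1 to 84.9) and Itga7 at 58.0 CPM (43.3 to 76.1). Lama2, which with Lamc1 forms the laminin of the muscle basement membrane, stood at 17.8 CPM (10.2 to 29.0) in these cells and 9.07 CPM in the progenitor-like cells of tumour 1. Lama5 stood at 31.2 CPM (20.8 to 45.1) and at 15.2 CPM, in the same order.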

How the data were processed

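Single-cell libraries of 4 tumours were used. The deposited values are log2 values, log2(UMI count / size factor + 1), as read from the values themselves, with size factors averaging 1. Cell Ranger, Seurat and mm10 are named in the submitters' processing notes. For their versions and roles, and for the tool behind the size factors, nothing is stated in the labels. All values returned whole UMI counts (tolerance 1e-06), and totals of kept cells were 19428657, 23360307, 10357576 and 18025159 UMIs in tumours 1 to 4.

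Cells were clustered jointly with scanpy 1.11.5 and leidenalg 0.10.2 (30 components, 15 neighbours, resolution 1, 21 clusters) on 1000 variable genes scaled within tumour, without the members. The doublet caller marked 0.323% of 6509 cells, too few to have worked, so doublets may remain. A cluster was named where its markers' mean log2 ratio reached 1 and its leading 10 genes did not go against it. That rule was set after the clusters were seen. Unnamed cells made up 30.1%, 2.40%, 2.94% and 0.957% of tumours 1 to 4. UMIs were summed per tumour and class (at least 10 cells, at least 3 tumours). Genes listed in all files entering, with a mean of at least 10 CPM and 10 UMIs, were fitted with limma 3.58.1 in R 4.3.3 (trend, robust, tumour block) on log2(CPM + 10), with Benjamini-Hochberg adjustment over all genes and a threshold of 0.05. The block is given by the design, since both classes come from the same tumour. The fit was tested on simulated data.

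The members and the gene lists were chosen with earlier results of these data known. Named with values were the 12 members with the highest mean CPM, up to 10 called members per direction and comparison, up to 4 called genes per list, up to 3 members per class, and partners of named members. Planned comparisons of neutrophils, of T and NK cells and of monocytes with microglia were not tested, because fewer than 3 tumours had enough cells. Alternatives varied scaling, pseudocount, filter, depth, block, resolution, doublets and tumours.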

Additional observations from a re-analysis of the deposited data

Results flagged for a closer look

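In 63 groups of 4 tumours (members with a mean of at least 5 CPM, over all cells or within a class), 13 had 1 tumour whose gap to the nearest other exceeded Dixon's critical value. Chance flags about 1 in 20 groups, and the groups share tumours, so the flags are not independent. Of these, 6 came from tumour 4 over all cells, where immune-like cells made up 63.1% of cells. There Itgb2 stood at 154 CPM against 2.41 to 16.9 CPM in the other tumours, Itgam at 85.5 CPM against 0.676 to 6.95 CPM and Itgb5 at 70.6 CPM against 1.64 to 7.57 CPM. Itga4 stood at 43.8 CPM against 5.35 to 6.18 CPM, Itgal at 21.9 CPM against 0.483 to 2.42 CPM and Itga6 at 15.9 CPM against 0.965 to 2.16 CPM.

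Within classes of tumour 4, Itgb2 stood at 20.7 CPM in progenitor-like cells against 0.242 to 3.42 CPM, and at 20.5 CPM in astrocyte-like cells against 0 to 1.81 CPM. In its neuron-like cells Col9a3 stood at 62.1 CPM against 131 to 139 CPM, and Itgb1 at 62.7 CPM against 94.2 to 97.0 CPM. Those neuron-like cells came almost wholly from a cluster of tumour 4 alone. Their cycling markers summed to 1569 CPM, against 492 to 917 CPM in the neuron-like cells of tumours 1 to 3. Col4a1 over all cells stood at 33.8 CPM in tumour 1 against 7.14 to 9.55 CPM. Itgb8 over all cells stood at 13.1 CPM in tumour 3 against 6.21 to 7.06 CPM. Itgav in astrocyte-like cells stood at 22.1 CPM in tumour 2 against 48.5 to 52.8 CPM. That class of tumour 2 had 15 cells with 135982 UMIs in all, so its value rests on few UMIs. None of these patterns was tested further.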

How the results depend on the processing

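Of the 26 member results called in the 5 comparisons, 11 kept direction and call under every setting run and 0 reversed in direction. Without the tumour block 16 of 26 kept their call, with thinned cells 18 of 25, with the mean of the deposited log2 values 20 of 26 and at resolution 2 18 of 24. The genes tested differed between some settings. The counts of members below are given without the share of all genes called under each setting, so they cannot be read against it. Without the replicate block, the members called in neuron-like cells fell to 0 higher and 1 lower, in cycling-like cells to 0 higher and 0 lower, and in astrocyte-like cells to 1 higher. With the mean of the deposited log2 values, neuron-like cells had 0 higher, cycling-like cells 0 lower and oligodendrocyte lineage-like cells 3 lower. With cells thinned to 4900 UMIs (19.4% of cells were shallower), there were 1 higher in neuron-like, 1 lower in cycling-like and 0 higher in astrocyte-like cells. With no filter on low genes, neuron-like cells had 5 higher and 8 lower, cycling-like cells 2 higher and myeloid-like cells 18 lower. That setting tested 13149 genes for neuron-like and for myeloid-like cells, against 8192 and 7972 in the main fits. With genes in at least 5% of cells, neuron-like cells had 4 higher and 5 lower, cycling-like cells 2 higher, oligodendrocyte lineage-like cells 1 lower and myeloid-like cells 10 lower. Median-of-ratios scaling gave 2 higher in cycling-like and 1 lower in oligodendrocyte lineage-like cells. Resolution 0.5 gave 2 higher in cycling-like cells, and resolution 2 gave 0 there and 0 higher in the oligodendrocyte lineage. Resolution 0.5 had no astrocyte or oligodendrocyte class, so those comparisons were not run. The cause of these shifts was not tested. Leaving out 1 tumour at a time gave 1 to 3 higher and 1 to 2 lower members in neuron-like cells, 1 higher and 2 to 4 lower in cycling-like cells, 0 to 2 higher in astrocyte-like cells, 2 to 5 higher and 0 to 1 lower in oligodendrocyte lineage-like cells and 7 to 9 higher and 2 to 3 lower in myeloid-like cells. An adjustment over only the genes that took no part in clustering, chosen after seeing the data, kept all 26 calls. The few cells of the astrocyte and oligodendrocyte classes limit what can be called there.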
